A study of Mus musculus with 11 samples.

Results

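The genes described here are 43 mouse genes for lysosomal enzymes, their activators and lysosomal membrane proteins, most of which are mutated in a human lysosomal storage disease. They were chosen by symbol from a written list, and each was found among the 24411 gene symbols of the count tables. Polyadenylated RNA had been sequenced from myeloid cells sorted from mouse brain and labelled as microglia-like, after competitive transplantation of blood-forming stem and progenitor cells. Per the series title the work concerned gene therapy with such cells in a model of Alzheimer's disease. The routes were lumbar intrathecal (ITL), into the cerebral ventricles (ICV) and intravenous (IV). Each route gave a CD45.1 TAµ, a CD45.2 µ and a CD45.1 µ library, where CD45.1 and CD45.2 are alleles of a leukocyte surface protein that are used to tell grafted from host blood cells. An ICV CD45.2 library named PBS and a library named CTR µ, with no allele given, bring the total to 11. The labels do not spell out TAµ, µ, PBS or CTR, nor whether CD45.1 or CD45.2 belongs to the graft. No strain, age, sex, conditioning, disease genotype or number of pooled animals is given for any group, and each group is 1 library.

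Lysosomes break down glycosaminoglycans, glycolipids, glycoproteins, glycogen and cholesterol esters with soluble acid hydrolases. Most of these enzymes are tagged with mannose 6-phosphate in the Golgi by the phosphotransferase that Gnptab and Gnptg encode. Sulfatases such as Arsa, Arsb, Ids, Sgsh and Galns need the formylglycine-generating enzyme Sumf1 to become active. Part of the tagged enzyme is secreted and can be taken up by neighbouring cells, which is the basis of stem cell gene therapy for metachromatic leukodystrophy (loss of ARSA in patients) and Hurler syndrome (loss of IDUA). The transcription factors TFEB and TFE3 raise many lysosomal genes in human and mouse cells through an E-box-like element with the core CACGTG, called the CLEAR element.

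The promoter windows of 6 genes are printed because these genes carry the results below or show how the motif is laid out. They are windows of 300 bases from RefSeq on GRCm38.p6 that end just after the annotated start, whereas the authors aligned to GRCm39, so they serve only as sequence. Capitals mark matches to CACGTG, or to TCACGTGA, the extended form, and to the full CLEAR motif (TCACGTGA with G before and C after it) where these are present. All 3 motifs read the same on both strands, and each longer one contains the shorter. The windows are those of Gla (chrX:134600956-134601255, minus strand), Sgsh (chr11:119355461-119355760, minus strand), Galc (chr12:98259410-98259709, minus strand), Cln3 (chr7:126583187-126583486, minus strand, the upstream end of 1 of its annotated starts), Mcoln1 (chr8:3500269-3500568, plus strand) and Lamp1 (chr8:13158911-13159210, plus strand).
Gla: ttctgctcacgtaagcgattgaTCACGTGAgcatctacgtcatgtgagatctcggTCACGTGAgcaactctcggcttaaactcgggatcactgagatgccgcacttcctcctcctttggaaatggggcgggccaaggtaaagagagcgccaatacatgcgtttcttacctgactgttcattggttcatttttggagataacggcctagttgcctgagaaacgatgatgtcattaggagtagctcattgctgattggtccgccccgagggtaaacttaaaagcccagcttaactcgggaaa
Sgsh: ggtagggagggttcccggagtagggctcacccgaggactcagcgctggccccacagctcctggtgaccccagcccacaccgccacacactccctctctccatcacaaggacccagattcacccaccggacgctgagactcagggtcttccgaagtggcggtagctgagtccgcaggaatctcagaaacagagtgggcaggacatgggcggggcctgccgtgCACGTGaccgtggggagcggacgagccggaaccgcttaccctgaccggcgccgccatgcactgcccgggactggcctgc
Galc: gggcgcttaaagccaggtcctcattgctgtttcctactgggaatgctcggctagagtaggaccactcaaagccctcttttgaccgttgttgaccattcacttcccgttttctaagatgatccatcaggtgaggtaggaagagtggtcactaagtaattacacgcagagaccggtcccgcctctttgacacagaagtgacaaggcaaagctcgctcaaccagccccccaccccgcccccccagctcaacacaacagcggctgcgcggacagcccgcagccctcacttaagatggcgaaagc
Cln3: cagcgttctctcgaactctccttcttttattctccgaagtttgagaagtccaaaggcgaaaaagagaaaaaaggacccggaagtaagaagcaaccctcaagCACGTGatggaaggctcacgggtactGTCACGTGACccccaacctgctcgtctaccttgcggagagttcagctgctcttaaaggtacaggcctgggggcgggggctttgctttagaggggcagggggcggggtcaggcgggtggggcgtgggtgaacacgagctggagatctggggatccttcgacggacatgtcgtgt
Mcoln1: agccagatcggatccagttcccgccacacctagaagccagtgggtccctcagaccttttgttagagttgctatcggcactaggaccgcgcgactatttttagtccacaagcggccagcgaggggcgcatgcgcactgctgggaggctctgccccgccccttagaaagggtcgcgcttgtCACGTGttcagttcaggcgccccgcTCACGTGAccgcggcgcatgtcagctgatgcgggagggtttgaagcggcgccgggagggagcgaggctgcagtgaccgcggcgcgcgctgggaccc
Lamp1: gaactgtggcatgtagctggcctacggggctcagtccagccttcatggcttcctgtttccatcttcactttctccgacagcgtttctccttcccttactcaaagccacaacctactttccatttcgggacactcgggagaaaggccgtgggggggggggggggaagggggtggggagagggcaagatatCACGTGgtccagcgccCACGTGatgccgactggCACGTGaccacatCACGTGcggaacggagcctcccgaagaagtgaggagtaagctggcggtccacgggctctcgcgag
Gla, for the lysosomal alpha-galactosidase, has its matches 227 and 194 bases before the start. Lamp1, for an abundant lysosomal membrane glycoprotein, has 4, at 61, 45, 28 and 15 bases. Sgsh has 1 match at 29 bases, and the Galc window has none. Windows were found for 38 of the 43 genes, and CACGTG was present in 12 of them (31.6%), namely Sgsh, Naglu, Arsa, Gla, Ctsa, Gaa, Cln3, Mcoln1, Lamp1, Lgmn, Sumf1 and Gnptg. The share was 11.5% of the 10044 tested genes that have a window and 8.09% of all 27025 genes with 1. TCACGTGA was present in 6 of the 38 (15.8%), against 2.15% of tested genes and 1.12% of all genes. The full CLEAR motif was present in 1 (2.63%, Cln3), against 0.806% of tested genes and 0.37% of all. These are descriptions of letters in a window and not of binding.

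Library totals ran from 6090589 to 21282823 counts, and the pre-ribosomal transcript Rn45s took 6.98% to 25.1% of them. The 10 microglia markers all had counts in every library, and their sum was 11290 to 23640 CPM (CPM being counts scaled by the library total) in 10 libraries and 34150 CPM in CTR. The 10 markers of graft-derived and border macrophages also had counts throughout. Their sum split the libraries, with 20220 to 30830 CPM in 8 of them, 5027 CPM in ITL CD45.2 µ, 7611 CPM in IV CD45.2 µ and 786 CPM in CTR. Most of that sum was Apoe, at 17040 to 27280 CPM in the 8. Apoe had 4194 CPM in ITL CD45.2 µ, 6532 CPM in IV CD45.2 µ and 530 CPM in CTR. Cd163 and Lyve1 did not split the libraries in this way, whereas the other markers of the list did, Cd38 by a small margin. Cd163 had 14.1, 20.25 and 14.9 CPM in those libraries and 4.73 to 33.3 CPM in the 8. ICV CD45.1 µ (11456) and IV CD45.2 µ (10477) had the fewest genes detected, with 12192 to 15492 in the other 9, and results that change without both are given below. ICV CD45.1 µ also held 1386 CPM of choroid plexus markers, against at most 149 CPM elsewhere. Neutrophil markers summed to 11390 CPM in IV CD45.1 µ, to 1.86 CPM in IV CD45.2 µ and to 727 to 3498 CPM in the others. Xist, which coats and silences 1 X chromosome in female cells, was at 6291 CPM in ICV CD45.1 µ and at 4028 to 6399 CPM in the CD45.2 libraries, at 12.3 to 1369 CPM in the other CD45.1 libraries and at 0 in CTR. The 4 Y-linked genes summed to 184 to 489 CPM in CD45.1 TAµ, 82.1 to 350 CPM in CD45.1 µ and 311 CPM in CTR. Their sum was at most 45.8 CPM in the CD45.2 libraries. These transcripts differed with population, so population and sex of the cells cannot be told apart, also for the X-linked genes. Xist differed with route as well. It had 295, 1369 and 6291 CPM in the IV, ITL and ICV libraries of CD45.1 µ. In those of CD45.1 TAµ it had 12.3, 51.2 and 429 CPM, and in those of CD45.2 µ 4028, 5391 and 6399 CPM. The part of sex in route differences of X-linked genes such as Gla and Lamp2 was not tested. In bulk libraries, fewer cells of a type and less RNA per cell cannot be told apart.

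The 43 genes took 1.30% to 1.78% of the counts in each library, the lowest share in ICV CD45.2 PBS and the highest in ITL CD45.1 µ. Per kilobase of annotated exon (lengths from GENCODE M21 on GRCm38), the mean over the 9 transplant libraries of the 3 routes and 3 populations was highest for Psap at 941 ± 142 CPM per kb (SD, n = 9). Psap encodes prosaposin, the precursor of the saposins that present sphingolipids to their hydrolases. Next came Lgmn (842 ± 168), which encodes asparaginyl endopeptidase, Laptm5 (760 ± 242), a lysosomal membrane protein of blood cells, Grn (461 ± 90.7), which encodes progranulin, and Lamp1 (386 ± 49.0). The neighbours Psap, Lgmn and Laptm5 do not differ beyond these SDs. Grn lies below Psap and Lgmn by more than the SDs, while its SD meets that of Laptm5. At the low end were Galns (7.01 ± 4.04 CPM per kb), Arsa (8.86 ± 3.92) and Gnptg (9.18 ± 2.91), which overlap with each other. The median SD of log2(CPM + 1) over the 9 libraries was 0.357 for the 43 genes and 0.706 for the 13339 genes tested. Among genes with a mean of at least 20 CPM, it was 0.357 for 41 genes of the set and 0.452 for all 6291. No test was made of this difference, and the 2 sets were not matched on level. The smallest SDs belonged to Npc1 (0.15), Lamp1 (0.18), Arsb (0.19), Scarb2 (0.19) and Ctsa (0.19). Npc1, the cholesterol exporter lost in Niemann-Pick type C disease, kept to 233 to 307 CPM in the 9 libraries, with 265 CPM in CTR. Arsb (arylsulfatase B) had 473 to 689 CPM, Scarb2 (the receptor that carries glucocerebrosidase to lysosomes) 231 to 374 CPM and Ctsa (protective protein cathepsin A) 519 to 730 CPM. The largest SDs were those of Acp5 (1.99), Galns (1.51), Sgsh (0.89), Gla (0.88) and Aga (0.70).

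**Figure D1:**
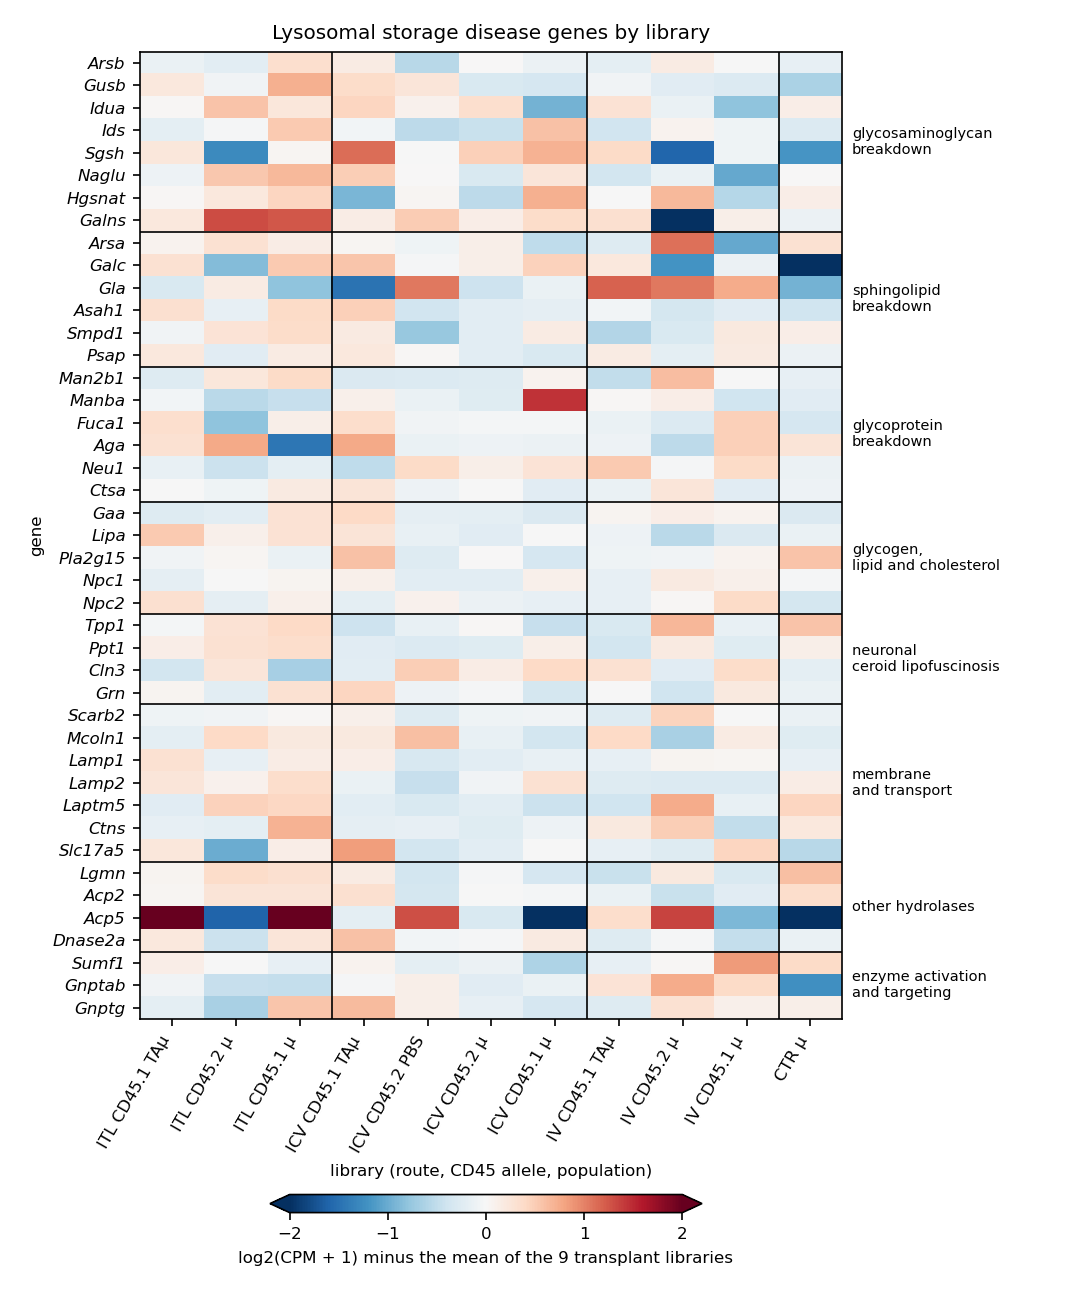
Heat map of the 43 genes (rows, grouped by role) in the 11 libraries (columns). Colour is log2(CPM + 1) minus the gene's mean over the 9 transplant libraries, and the scale stops at 2 either way. Most cells are pale; the rows of Acp5, Galns, Galc, Sgsh, Gla, Aga and Manba hold the deepest colours.

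The 8 enzymes of glycosaminoglycan breakdown together had 1051 to 1620 CPM in the 9 transplant libraries, with 1015 CPM in PBS and 985 CPM in CTR. Sgsh, the heparan N-sulfatase lost in Sanfilippo syndrome type A, had 77.2, 144 and 86.2 CPM in the ITL, ICV and IV libraries of CD45.1 TAµ, 26.6, 91.3 and 21.1 CPM in those of CD45.2 µ and 67.1, 107 and 61.9 CPM in those of CD45.1 µ. It had 65.0 CPM in ICV CD45.2 PBS and 28.4 CPM in CTR. Sgsh was thus low in ITL CD45.2 µ, IV CD45.2 µ and CTR, and not in ICV CD45.2 µ. Idua, the alpha-L-iduronidase lost in Hurler syndrome, had 71.9, 96.3 and 87.3 CPM in the ITL, ICV and IV libraries of CD45.1 TAµ, 106, 89.8 and 64.4 CPM in those of CD45.2 µ and 83.1, 36.2 and 40.3 CPM in those of CD45.1 µ. It had 75.5 CPM in ICV CD45.2 PBS and 78.1 CPM in CTR. The low values of Idua were those of ICV CD45.1 µ and IV CD45.1 µ. Ids, the X-linked iduronate 2-sulfatase of Hunter syndrome, had 134, 147 and 118 CPM in the ITL, ICV and IV libraries of CD45.1 TAµ, 150.2, 112 and 162 CPM in those of CD45.2 µ and 220.1, 231 and 145 CPM in those of CD45.1 µ, with 106 CPM in ICV CD45.2 PBS and 126 CPM in CTR. Naglu, the alpha-N-acetylglucosaminidase of Sanfilippo type B, had 57.0, 90.0 and 96.7 CPM in the CD45.1 TAµ, CD45.2 µ and CD45.1 µ libraries of ITL, 87.0, 49.6 and 73.1 CPM in those of ICV and 47.5, 56.1 and 29.9 CPM in those of IV. All 3 ITL libraries lie above the 3 IV libraries for Naglu, by the margin between 57.0 and 56.1 CPM. Hgsnat, the membrane acetyltransferase of Sanfilippo type C, had 39.3, 20.1 and 38.8 CPM in the ITL, ICV and IV libraries of CD45.1 TAµ, 45.0, 26.6 and 61.8 CPM in those of CD45.2 µ and 52.6, 64.5 and 25.7 CPM in those of CD45.1 µ, so that its 3 populations overlap. Galns, the N-acetylgalactosamine 6-sulfatase of Morquio syndrome, was at 0 in IV CD45.2 µ, where 3 counts would be 0.232 CPM, and at 14.5 to 34.3 CPM in the other 8 of the 9. Gusb (beta-glucuronidase) ranged from 184 to 378 CPM in the 9 libraries.

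Sphingolipid breakdown is the pathway behind metachromatic leukodystrophy, Krabbe disease and Fabry disease. Galc, the galactosylceramidase that digests myelin lipid and is lost in Krabbe disease, had 186, 219.5 and 173 CPM in the ITL, ICV and IV libraries of CD45.1 TAµ, 81.6, 163 and 65.0 CPM in those of CD45.2 µ and 216, 207 and 138 CPM in those of CD45.1 µ. It had 148 CPM in ICV CD45.2 PBS and 33.7 CPM in CTR. As with Sgsh, the 3 low libraries were ITL CD45.2 µ, IV CD45.2 µ and CTR, which are also the 3 with a graft-derived and border macrophage marker sum of at most 7611 CPM. That sum was mostly Apoe, and the part of those cells in the result was not tested. Arsa, the arylsulfatase A of metachromatic leukodystrophy, had 30.3, 29.5 and 23.9 CPM in the ITL, ICV and IV libraries of CD45.1 TAµ, 35.5, 31.3 and 62.6 CPM in those of CD45.2 µ and 31.9, 19.9 and 13.6 CPM in those of CD45.1 µ. It had 26.9 CPM in ICV CD45.2 PBS and 35.8 CPM in CTR. Each CD45.2 µ value lies above each CD45.1 TAµ value, by the margin between 31.3 and 30.3 CPM, and the highest value is in IV CD45.2 µ. Gla, the X-linked alpha-galactosidase A of Fabry disease, had 61.8, 85.7 and 43.4 CPM in the CD45.1 TAµ, CD45.2 µ and CD45.1 µ libraries of ITL, 27.1, 57.4 and 69.8 CPM in those of ICV and 176, 160.1 and 129.6 CPM in those of IV. It had 161 CPM in ICV CD45.2 PBS and 39.2 CPM in CTR. Every IV value of Gla exceeds every ITL and every ICV value, and the PBS library, although ICV, lies among the IV values. Psap had 2962, 2965 and 2855 CPM in the ITL, ICV and IV libraries of CD45.1 TAµ, 2190, 2210 and 2225 CPM in those of CD45.2 µ and 2845, 2068 and 2889 CPM in those of CD45.1 µ, with 2606 CPM in ICV CD45.2 PBS and 2360 CPM in CTR. The CD45.2 µ values of Psap keep within 2190 to 2225 CPM and lie below all CD45.1 TAµ values. Asah1, the acid ceramidase, had 678, 751 and 523 CPM in the ITL, ICV and IV libraries of CD45.1 TAµ, 484, 467 and 423 CPM in those of CD45.2 µ and 706, 476 and 459.6 CPM in those of CD45.1 µ. Smpd1, the acid sphingomyelinase of Niemann-Pick types A and B, had 23.6 to 46.4 CPM in the 9 libraries.

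**Figure D2:**
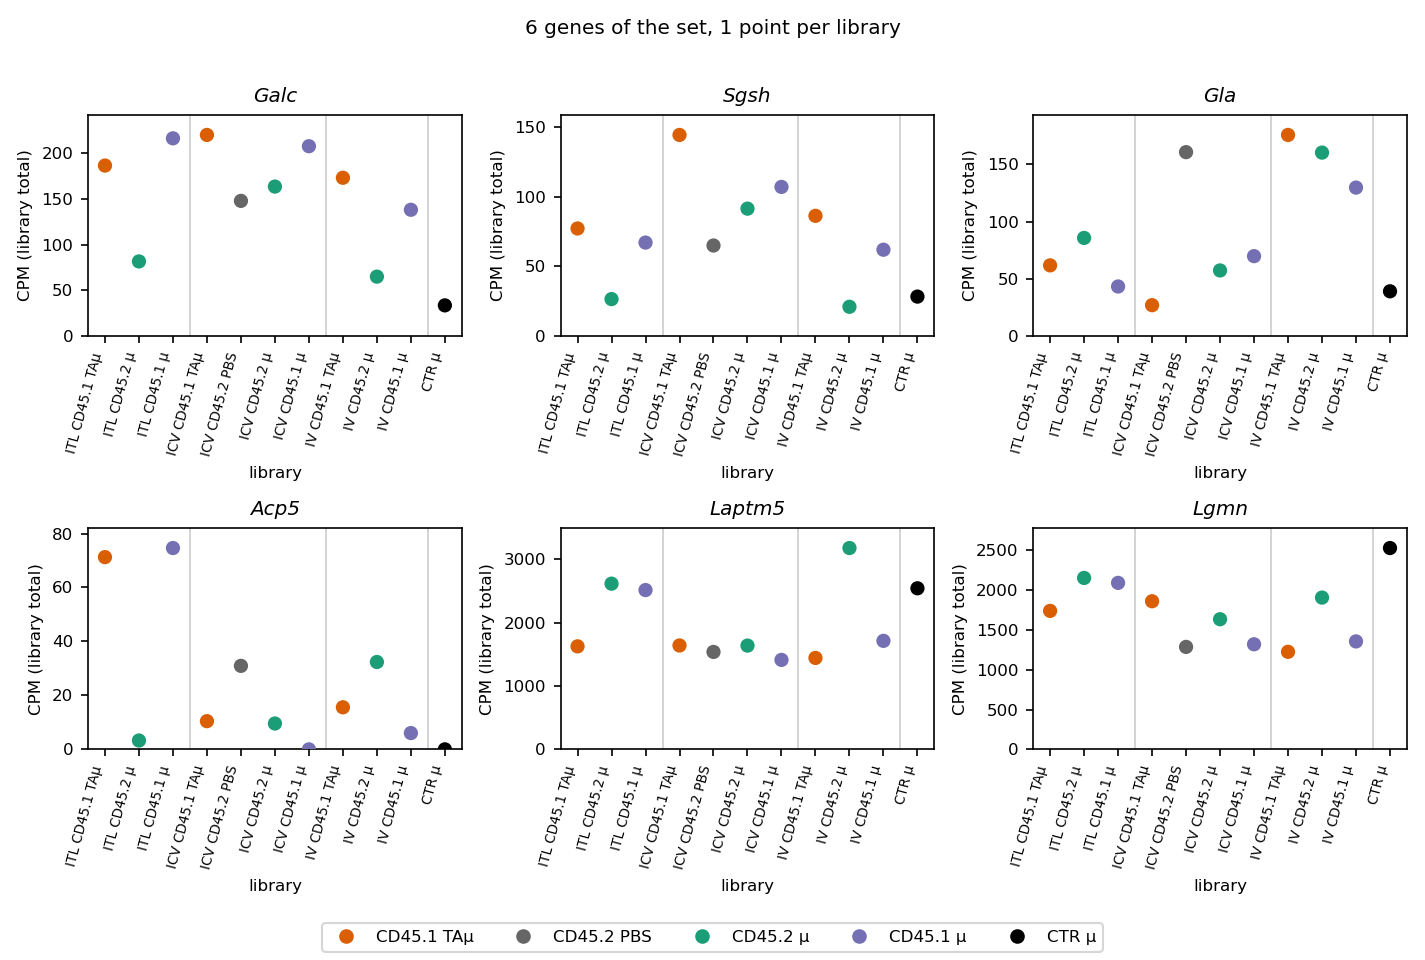
Level in CPM (vertical axes, from 0) of Galc, Sgsh, Gla, Acp5, Laptm5 and Lgmn in each of the 11 libraries (horizontal axes), with 1 point per library coloured by population. Galc and Sgsh are low in ITL CD45.2 µ, IV CD45.2 µ and CTR, Gla is high in the IV and PBS libraries, and Acp5 is highest in ITL CD45.1 TAµ and ITL CD45.1 µ.

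Among the 6 genes of glycoprotein breakdown, Man2b1, the lysosomal alpha-mannosidase, had 601, 589.7 and 512 CPM in the ITL, ICV and IV libraries of CD45.1 TAµ, 838, 601 and 1105 CPM in those of CD45.2 µ and 934, 751 and 717 CPM in those of CD45.1 µ. Within each route the CD45.1 TAµ value of Man2b1 lies below the CD45.1 µ value. Manba, the beta-mannosidase, had 150 CPM in ICV CD45.1 µ and 37.3 to 59.7 CPM in the other 8 of the 9. That library is the 1 with 1386 CPM of choroid plexus markers, whose part in the value was not tested. Aga, the aspartylglucosaminidase, had 5.57 CPM in ITL CD45.1 µ and 11.4 to 29.3 CPM in the other 8. Neu1, the sialidase, had 48.5, 39.7 and 46.7 CPM in the CD45.1 TAµ, CD45.2 µ and CD45.1 µ libraries of ITL, 37.6, 58.0 and 64.9 CPM in those of ICV and 77.5, 52.5 and 70.5 CPM in those of IV. Fuca1, the alpha-fucosidase, had 32.5 to 81.2 CPM.

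For glycogen, lipid and cholesterol, Lipa, the acid lipase of Wolman disease, had 262, 195 and 223 CPM in the CD45.1 TAµ, CD45.2 µ and CD45.1 µ libraries of ITL, 219, 156 and 182 CPM in those of ICV and 169.8, 125 and 149 CPM in those of IV. The 3 ITL values of Lipa lie above the 3 IV values. Pla2g15, a lysosomal phospholipase A2, had 477 CPM in ICV CD45.1 TAµ, 251 to 333 CPM in the other 8 of the 9 and 473 CPM in CTR. Gaa, the acid alpha-glucosidase of Pompe disease, had 107 to 172 CPM and Npc2, the cholesterol carrier that works with Npc1, 221 to 329 CPM in the 9 libraries.

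Of the 4 genes of neuronal ceroid lipofuscinosis, Grn was the highest. Progranulin is also known for frontotemporal dementia when 1 copy is lost in people. Grn had 1099, 1427 and 1054 CPM in the ITL, ICV and IV libraries of CD45.1 TAµ, 915, 1043 and 801 CPM in those of CD45.2 µ and 1312, 834 and 1214 CPM in those of CD45.1 µ. It had 989 CPM in ICV CD45.2 PBS and 968 CPM in CTR, and its 3 CD45.1 TAµ values lie above its 3 CD45.2 µ values. Tpp1, the tripeptidyl peptidase, had 262, 202 and 218 CPM in the ITL, ICV and IV libraries of CD45.1 TAµ, 331, 275 and 427 CPM in those of CD45.2 µ and 355, 195 and 244 CPM in those of CD45.1 µ, with 244 CPM in ICV CD45.2 PBS and 400 CPM in CTR. Ppt1, the palmitoyl-protein thioesterase, had 132 to 217 CPM, and Cln3, for a lysosomal membrane protein, had 30.6 to 65.0 CPM.

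Among the 7 membrane and transport genes, Laptm5 had 1627, 1641 and 1444 CPM in the ITL, ICV and IV libraries of CD45.1 TAµ, 2617, 1639 and 3180 CPM in those of CD45.2 µ and 2516, 1413 and 1714 CPM in those of CD45.1 µ. It had 1539 CPM in ICV CD45.2 PBS and 2544 CPM in CTR. The 4 libraries with the highest Laptm5, namely ITL CD45.2 µ, ITL CD45.1 µ, IV CD45.2 µ and CTR, are the 4 whose microglia marker sum was 20070 CPM or more, against 11290 to 16320 CPM in the other 7, and the part of the markers in this was not tested. Lamp2, an X-linked lysosomal membrane glycoprotein that is lost in Danon disease, had 788, 710.4 and 847 CPM in the CD45.1 TAµ, CD45.2 µ and CD45.1 µ libraries of ITL, 609.6, 636 and 828 CPM in those of ICV and 557, 553 and 551 CPM in those of IV. It had 481 CPM in ICV CD45.2 PBS and 736 CPM in CTR. The IV values of Lamp2 lie between 551 and 557 CPM, below all 3 ITL and all 3 ICV values. Slc17a5, the sialic acid exporter, had 42.5, 65.3 and 32.2 CPM in the ITL, ICV and IV libraries of CD45.1 TAµ, 17.7, 31.0 and 29.9 CPM in those of CD45.2 µ and 39.7, 35.9 and 49.2 CPM in those of CD45.1 µ. Mcoln1, the calcium channel of mucolipidosis type IV, had 22.7 to 47.6 CPM and Ctns, the cystine exporter, 42.3 to 96.9 CPM.

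Among the other hydrolases, Acp5, the tartrate-resistant acid phosphatase that is known as a marker of osteoclasts and activated macrophages, had 71.3, 3.28 and 74.6 CPM in the CD45.1 TAµ, CD45.2 µ and CD45.1 µ libraries of ITL, 10.5, 9.59 and 0 CPM in those of ICV and 15.6, 32.4 and 6.04 CPM in those of IV. It had 30.9 CPM in ICV CD45.2 PBS. In ICV CD45.1 µ and in CTR its count was 0, which allows up to 0.269 and 0.23 CPM. Its high values were those of the ITL CD45.1 libraries, and the ITL CD45.2 µ value rests on 20 counts. Lgmn had 1226 to 2155 CPM, Acp2 (lysosomal acid phosphatase) 150 to 256 CPM and Dnase2a (acid DNase) 54.3 to 115 CPM in the 9 libraries. For enzyme activation and targeting, Gnptab had 74.5, 56.8 and 56.2 CPM in the CD45.1 TAµ, CD45.2 µ and CD45.1 µ libraries of ITL, 77.4, 66.9 and 71.5 CPM in those of ICV and 94.7, 133 and 103 CPM in those of IV, so that each IV value lies above each ITL and ICV value. Gnptg had 12.3 to 31.4 CPM. Sumf1 had 99.3 CPM in IV CD45.1 µ and 35.5 to 60.2 CPM in the other 8 of the 9.

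The comparisons asked whether these levels differed between populations across routes, and between routes across populations. A single additive model of route and population was fitted to the 9 libraries with edgeR's quasi-likelihood test, and a gene was called to rise or fall at an adjusted p under 0.05 (Benjamini-Hochberg over 13339 genes). All 43 genes passed the filter on low counts. Each population or route was represented by 3 libraries, which are not replicates of each other, since they differ in the other factor. The p-values measure the spread that is left after the additive fit. That spread mixes any interaction of route and population with noise between libraries, which may be technical. The fit cannot separate these, because no combination of route and population has a replicate. Comparisons that use the same libraries are not independent of each other. A p that misses the threshold does not show that the levels were equal.

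In CD45.1 TAµ against CD45.1 µ, none of the 43 genes was called by edgeR, and the background was 0.075% of genes called. DESeq2 also called 0 of the 43, against 1.63% of all genes. Idua was the 1 gene of the set with an unadjusted p under 0.05, higher, where the background was 3.23% higher and 2.13% lower. Idua averaged 85.2 ± 12.4 CPM in CD45.1 TAµ and 53.2 ± 26.0 CPM in CD45.1 µ (SD, n = 3 each), a log2 fold change of 0.87 ± 0.34 (SE, edgeR adjusted p = 0.874). It was higher in CD45.1 TAµ by ICV and by IV and lower by ITL. Next by p among positive changes were Asah1 (0.38 ± 0.23), Lipa (0.35 ± 0.23) and Pla2g15 (0.39 ± 0.26). Negative changes were led by Ids (-0.43 ± 0.26), Man2b1 (-0.35 ± 0.23), Hgsnat (-0.42 ± 0.43) and Smpd1 (-0.29 ± 0.38), none past the threshold. The sign for Hgsnat turns without ICV CD45.1 µ (0.10). For Man2b1 the groups did not overlap, which held for 1 gene of the set downward and 0 upward, with a background of 6.33% and 7.89%. Fitted changes were positive for 29 genes and negative for 14, with a median of 0.16, and the median of all tested genes was 0.057. With library totals in place of composition scaling, the median of all genes moves by -0.12, and 22 of the 43 were positive. Without ICV CD45.1 µ the median of the 43 was -0.039, and without both that library and IV CD45.2 µ it was -0.018.

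In CD45.2 µ against CD45.1 µ, edgeR called 0 of the 43 (background 0.03% of genes), and DESeq2 called 0, against 2.08% of all genes. At an unadjusted p under 0.05 there were 2 higher and 2 lower, with a background of 4.94% higher and 3.85% lower. Higher were Arsa, which averaged 43.1 ± 17.0 CPM in CD45.2 µ and 21.8 ± 9.31 CPM in CD45.1 µ (log2 fold change 1.10 ± 0.45, edgeR adjusted p = 0.529), and Idua (0.77 ± 0.34). Arsa was higher in CD45.2 µ by all 3 routes, most by IV. Lower were Galc, with 103 ± 52.6 CPM in CD45.2 µ and 187 ± 42.7 CPM in CD45.1 µ (-0.85 ± 0.28, edgeR adjusted p = 0.485), and Sgsh (-0.84 ± 0.35). Galc and Sgsh were lower in CD45.2 µ by each route, least by ICV. The remaining genes with the smallest p were Tpp1 (0.45 ± 0.25), Laptm5 (0.43 ± 0.24), Ids (-0.43 ± 0.26) and Slc17a5 (-0.63 ± 0.42). Groups did not overlap for Fuca1 and Slc17a5, both lower, against a background of 5.64% lower, and for 0 genes higher, against 4.45%. The median over the 43 was -0.064, with 17 positive, and over all tested genes -0.0074. Without ICV CD45.1 µ and IV CD45.2 µ the changes of Tpp1 and Laptm5 were -0.027 and -0.10, and the median was -0.30.

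In CD45.1 TAµ against CD45.2 µ, edgeR called 0 of the 43 (background 0.345% of genes), and 5 were higher and 1 lower at an unadjusted p under 0.05 (background 3.07% higher and 3.69% lower). The 2 with the smallest p were Sgsh and Galc. Sgsh averaged 103 ± 36.3 CPM in CD45.1 TAµ and 46.4 ± 39.1 CPM in CD45.2 µ (SD, n = 3 each), with a log2 fold change of 1.33 ± 0.35 (edgeR adjusted p = 0.148). Galc averaged 193 ± 24.1 CPM in CD45.1 TAµ and 103 ± 52.6 CPM in CD45.2 µ, with a log2 fold change of 1.03 ± 0.28 (edgeR adjusted p = 0.193). Both were higher in CD45.1 TAµ by each of the 3 routes. DESeq2 called these 2 genes (adjusted p = 0.018 for Sgsh and 0.0304 for Galc), where its background was 1.45% of all genes. Without the ICV CD45.2 µ library edgeR called the same 2, with log2 fold changes of 1.98 (adjusted p = 0.0212) and 1.46 (adjusted p = 0.028), where the background was 1.21%. Over all settings tried, the edgeR or DESeq2 adjusted p ran from 0.018 to 1 for Sgsh and from 0.028 to 1 for Galc, and it was 1 without IV CD45.1 TAµ. Asah1 (0.58 ± 0.23), Lipa (0.53 ± 0.23) and Psap (0.49 ± 0.22) were the other 3 with a positive change at an unadjusted p under 0.05. Laptm5 (-0.51 ± 0.24), Tpp1 (-0.52 ± 0.25), Man2b1 (-0.46 ± 0.23) and Arsa (-0.57 ± 0.44) had the smallest p among negative changes, and Arsa had 0.042 without ICV CD45.1 µ and IV CD45.2 µ. Groups did not overlap for 6 higher genes (Galc, Asah1, Psap, Grn, Gusb and Slc17a5, with a background of 6.29%) and 2 lower genes (Tpp1 and Arsa, with a background of 4.78%). The median over the 43 was 0.14, with 31 positive, and over all tested genes 0.098. In these libraries the macrophage marker sum was 20220 to 30830 CPM in CD45.1 TAµ, against 5027 to 22200 CPM in CD45.2 µ. It was mostly Apoe, and its part in the changes was not tested. In this contrast edgeR called all 4 Y-linked genes higher and Xist lower, so population cannot be told apart from sex of the cells.

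**Figure D3:**
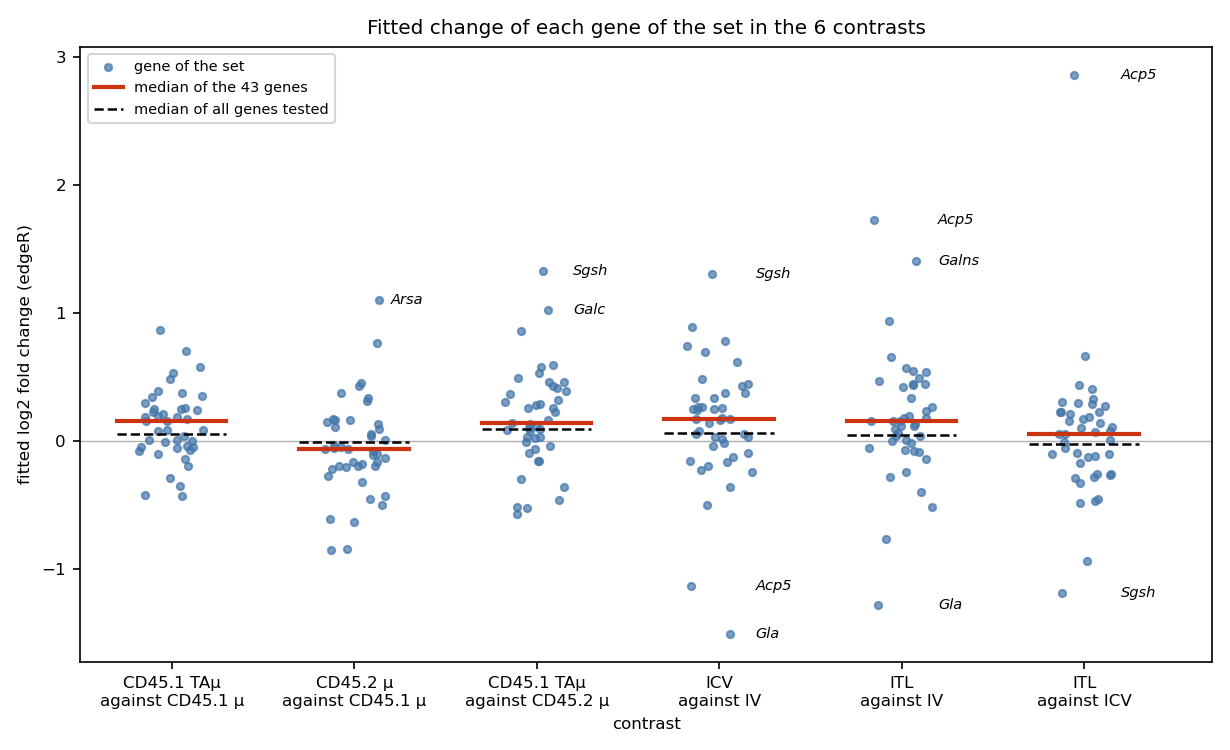
Fitted log2 fold change (vertical axis) of each of the 43 genes, 1 point per gene, in the 6 contrasts (horizontal axis); the solid line is the median of the 43 and the dashed line the median of all 13339 genes tested. The solid medians lie between -0.064 and 0.17, and the labelled points are the genes farthest from 0.

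In ICV against IV, edgeR called 0 of the 43 and 0 of all genes (background 0%), while DESeq2 called 2 of the 43, Gla and Sgsh, against 1.1% of all genes. By edgeR, 4 of the set were higher and 1 lower at an unadjusted p under 0.05 (background 5.17% higher and 4.05% lower). Gla averaged 51.4 ± 22.0 CPM in ICV and 155 ± 23.3 CPM in IV (SD, n = 3 each), with a log2 fold change of -1.50 ± 0.33 (edgeR adjusted p = 0.153). The DESeq2 adjusted p was 0.011, and the range over all settings was 0.011 to 0.47. Gla was lower by ICV in all 3 populations. Sgsh averaged 114 ± 27.1 CPM in ICV and 56.4 ± 32.9 CPM in IV, with a log2 fold change of 1.30 ± 0.33 (edgeR adjusted p = 0.288). Its DESeq2 adjusted p was 0.0324, and the range over all settings was 0.0324 to 0.602. Galc (0.89 ± 0.28), Naglu (0.78 ± 0.35) and Lamp2 (0.43 ± 0.20) came next among positive changes. Gnptab (-0.50 ± 0.29), Acp5 (-1.13 ± 0.88) and Tpp1 (-0.24 ± 0.25) followed Gla among negative ones. The changes of Acp5 and Tpp1 were 1.13 and 0.27 without ICV CD45.1 µ and IV CD45.2 µ, and that of Acp5 was 0.15 without IV CD45.2 µ alone. Groups did not overlap for Sgsh, Acp2 and Lamp2 (higher, background 3.06%) and for Gla and Gnptab (lower, background 7.01%). The ICV CD45.2 PBS library, which was not in the fit, did not keep to most of these separations. It lay within the IV range for Sgsh (65.0 CPM), Acp2 (160 CPM) and Gla (160.5 CPM), and below all IV values for Lamp2 (481 CPM). For Gnptab (85.7 CPM) it lay below the IV values and above the ICV values of the fit. The median was 0.17 over the 43, with 30 positive, and 0.065 over all tested genes. It was -0.0052 over the 43 without ICV CD45.1 TAµ, and with library totals alone, which move the median of all genes by -0.125, 24 were positive.

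In ITL against IV, edgeR and DESeq2 each called 0 of the 43 (background 0.217% of genes by edgeR and 1.12% by DESeq2), and 4 were higher and 2 lower at an unadjusted p under 0.05 (background 2.26% higher and 3.09% lower). Gla averaged 63.6 ± 21.2 CPM in ITL and 155 ± 23.3 CPM in IV, with a log2 fold change of -1.28 ± 0.33 (edgeR adjusted p = 0.222). Without ICV CD45.1 µ and IV CD45.2 µ it was called (-1.53, edgeR adjusted p = 0.0404, background 0.373%), and over all settings the adjusted p ran from 0.0404 to 1. Gnptab fitted at -0.77 ± 0.30, Neu1 at -0.52 ± 0.34 and Cln3 at -0.40 ± 0.37. On the positive side were Lipa, which averaged 227 ± 33.4 CPM in ITL and 148 ± 22.3 CPM in IV (0.66 ± 0.24, edgeR adjusted p = 0.689), Lamp2 (0.54 ± 0.20), Naglu (0.94 ± 0.36) and Acp5 (1.73 ± 0.77). Acp5 was higher in ITL in both CD45.1 populations and lower in CD45.2 µ, and its log2 fold change was 0.54 without ITL CD45.1 µ. Groups did not overlap for Lipa, Lamp2, Naglu and Acp2 (higher, background 4.74%) and for Gla, Gnptab and Neu1 (lower, background 6.84%). By role, changes were positive for 8 of 8 genes of glycosaminoglycan breakdown (median 0.41), 4 of 4 other hydrolases (0.48), 5 of 6 of sphingolipid breakdown (0.33), 5 of 7 of membrane and transport (0.16), 3 of 4 of neuronal ceroid lipofuscinosis (0.18) and 3 of 5 of glycogen, lipid and cholesterol (0.0038). They were positive for 2 of 6 of glycoprotein breakdown (-0.043) and 1 of 3 of enzyme activation and targeting (-0.28), where 53% of all tested genes were positive. Part of this split was also seen in ICV against IV. There, changes were positive for 7 of 8 genes of glycosaminoglycan breakdown (median 0.30), 3 of 4 other hydrolases (0.37) and 3 of 6 of sphingolipid breakdown (0.18). In ITL against IV the median was 0.16 over the 43, with 31 positive, and 0.049 over all tested genes. The median of the 43 was 0.026 without ITL CD45.1 µ. The populations did not share this direction. The median difference of log2(CPM + 1), ITL minus IV, was 0.38 in CD45.1 µ, 0.17 in CD45.1 TAµ and -0.19 in CD45.2 µ. Positive differences numbered 30, 31 and 18 of the 43. Over all tested genes the medians were 0, -0.14 and 0.18. Within CD45.2 µ, Arsb, Ids and Hgsnat were lower by ITL, and Galns was at 0 in IV.

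In ITL against ICV, edgeR called 0 of the 43 and 0 of all genes (background 0%), and DESeq2 called 0 of the 43 (background 0.24%). By edgeR, 1 of the set was higher and 2 lower at an unadjusted p under 0.05 (background 1.63% higher and 2.16% lower). Acp5 averaged 49.7 ± 40.3 CPM in ITL and 6.68 ± 5.80 CPM in ICV, with a log2 fold change of 2.86 ± 0.85 (edgeR adjusted p = 0.847). The SDs show that the ITL libraries did not share this level, since ITL CD45.2 µ had 3.28 CPM. Sgsh averaged 56.9 ± 26.8 CPM in ITL and 114 ± 27.1 CPM in ICV, with non-overlapping groups (-1.18 ± 0.35, edgeR adjusted p = 0.847). Manba (-0.93 ± 0.39), Galc (-0.46 ± 0.28) and Cln3 (-0.45 ± 0.37) came next among negative changes, and Tpp1 (0.44 ± 0.25), Laptm5 (0.41 ± 0.24) and Ppt1 (0.30 ± 0.24) among positive ones. The only gene besides Sgsh whose groups did not overlap was Ppt1, higher in ITL, against backgrounds of 6.47% higher and 3.28% lower. The median was 0.059 over the 43, with 24 positive, and -0.022 over all tested genes. It was -0.16 without ICV CD45.1 µ, -0.075 without ITL CD45.1 µ and -0.15 without ICV CD45.1 µ and IV CD45.2 µ.

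The other genes of the lysosomal system were taken from 4 lists, and edgeR called none of their genes in any of the 6 contrasts. Of 26 other storage disease genes the closest was Ctsc, which encodes cathepsin C, in CD45.1 TAµ against CD45.2 µ (1.09 ± 0.25, edgeR adjusted p = 0.0841). Ctsc had 1140, 1269 and 1110 CPM in the ITL, ICV and IV libraries of CD45.1 TAµ, 482, 969.8 and 389 CPM in those of CD45.2 µ and 927, 1113 and 842 CPM in those of CD45.1 µ, the same 3 low libraries as for Galc and Sgsh when the 508 CPM of CTR are included. On the negative side of that contrast were Arsg (-1.76 ± 0.67), a further sulfatase, and Ctsf (-0.62 ± 0.36). Among the 24 genes of sorting to lysosomes, the receptor genes Sort1 (-1.22 ± 0.35) and Lrp1 (-0.83 ± 0.25) had the smallest p there (edgeR adjusted p = 0.218 and 0.273). Of the vacuolar ATPase, which acidifies lysosomes, 18 of 19 genes were tested. Atp6v0d2, known from osteoclasts, had the largest positive changes, 4.16 ± 2.12 in CD45.1 TAµ against CD45.2 µ and 4.93 ± 1.69 in ITL against ICV, with adjusted p of 0.776 and 0.998 by edgeR. These are ratios to values near 0. Atp6v0d2 had 12.9 CPM in ITL CD45.1 µ and 16.7 CPM in ITL CD45.1 TAµ, and at most 2.03 CPM in the rest of the 9 libraries. Among the 22 genes of gene regulation and nutrient sensing, Tfeb had 14.1 to 64.5 CPM and Tfe3 100.5 to 192 CPM in the 9 libraries. Tfec, a relative of Tfeb, fitted at 1.77 ± 0.80 in ICV against IV with non-overlapping groups. The margin was that between 10.6 and 10.3 CPM, and Tfec was at 0 in IV CD45.2 µ. Rragd, a GTPase that helps mTORC1 to sense nutrients, fitted at -4.27 ± 1.51 in the same contrast, also not past the threshold.

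CTR was set beside the 9 transplant libraries gene by gene, with no test since it is 1 library. It lay outside their range for 8 of the 43 genes. CTR was above the range for Lgmn (1226 to 2155 CPM in the 9 and 2531 CPM in CTR) and Acp2 (150 to 256 CPM in the 9 and 262 CPM in CTR), which makes 2 of the 43 with a background of 5.22%. It was below for 6 of the 43, with a background of 7.47%. Galc had 65.0 to 219.5 CPM in the 9 and 33.7 CPM in CTR, and Gnptab had 56.2 to 133 CPM in the 9 and 33.1 CPM in CTR. Gusb had 184 to 378 CPM in the 9 and 150 CPM in CTR, and Npc2 had 221 to 329 CPM in the 9 and 198 CPM in CTR. The gap was small for Asah1 (423 to 751 CPM in the 9 and 410 CPM in CTR) and Gaa (106.6 to 172 CPM in the 9 and 106.5 CPM in CTR). No gene of the set passed 2-fold beyond the range, where the background was 0.201% above and 1.21% below. With composition scaling (TMM) or with Rn45s left out, 5 genes were outside, 2 above and 3 below. The median of the log2 difference, taken as CTR minus the mean of the 9, was -0.13 over the 43 and -0.034 over all 12445 genes compared. CTR had the highest microglia marker sum and the lowest macrophage marker sum of the 11 libraries, and the part of these cells in the differences was not tested.

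**Figure D4:**
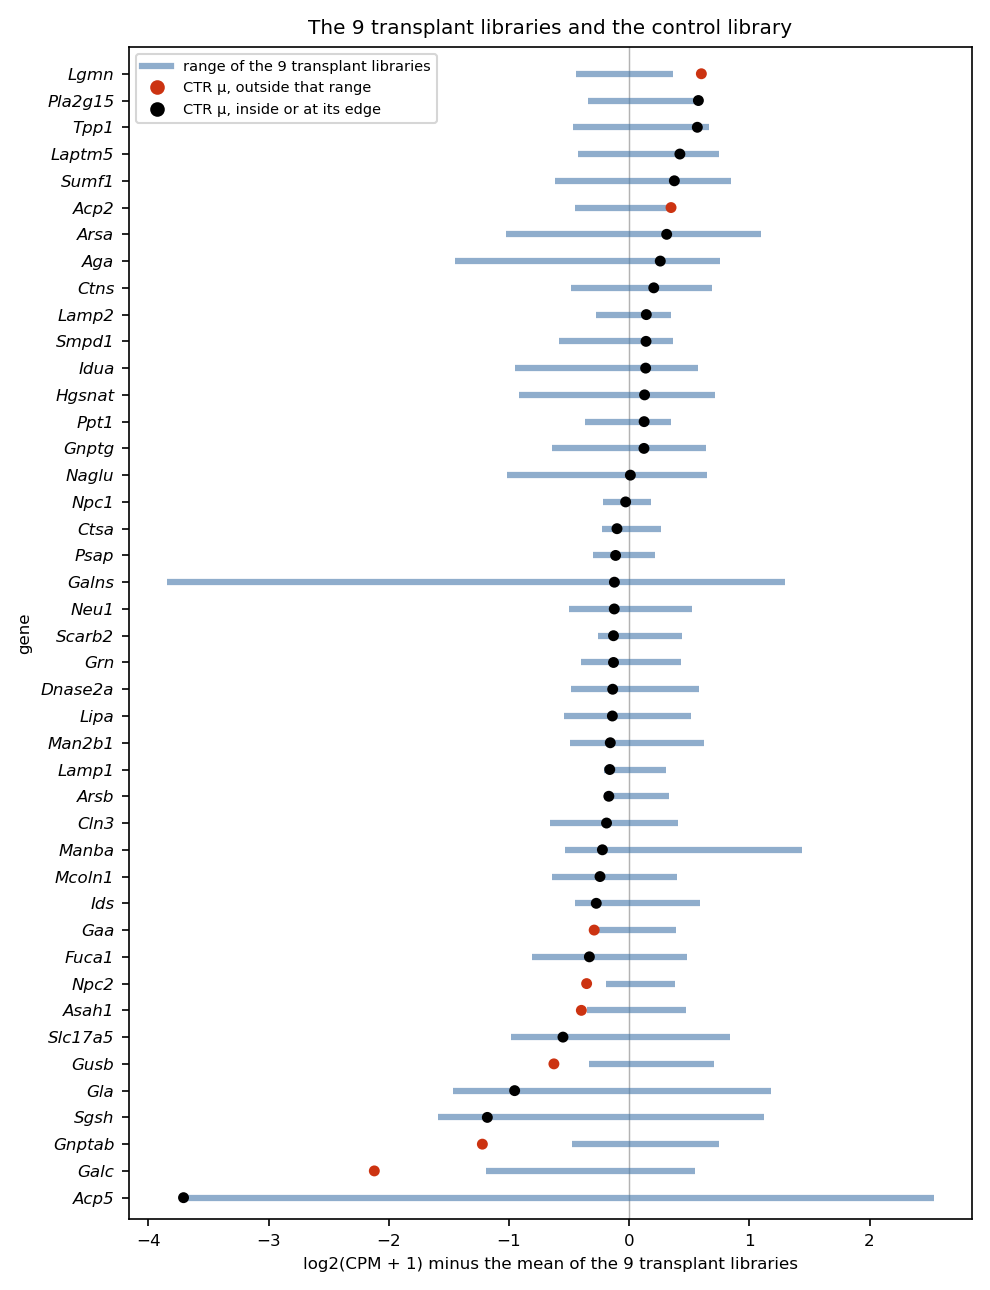
Range over the 9 transplant libraries (bars) and level in CTR µ (points) of each of the 43 genes (vertical axis), as log2(CPM + 1) minus the mean of the 9 (horizontal axis). Red points lie outside the range: Lgmn and Acp2 above, and Galc, Gnptab, Gusb, Asah1, Npc2 and Gaa below.

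The ICV CD45.2 PBS library was set beside ICV CD45.2 µ, again with 1 library each and no test. Acp5 was 3.23-fold higher in PBS (30.9 CPM in PBS and 9.59 CPM in ICV CD45.2 µ, with an exact 95% interval of the ratio of 2.75 to 3.80 that covers counting error only). Gla was 2.80-fold higher (160.5 CPM in PBS and 57.4 CPM in ICV CD45.2 µ, interval 2.62 to 2.99). These were the only 2 genes of the set past 2-fold, both higher, with a background of 5.39% higher and 4.38% lower. Mcoln1 followed at 1.70-fold (1.54 to 1.87). The lowest ratios of PBS to ICV CD45.2 µ were those of Smpd1 (0.675, interval 0.595 to 0.765), Arsb (0.676, interval 0.656 to 0.696) and Sgsh (0.711, interval 0.662 to 0.764). PBS was higher for 18 of the 43 and for 63% of all genes compared. The median log2 difference was -0.035 for the set, against 0.13 over all 12088 genes compared. With TMM scaling it was higher for 13 of the 43 and for 48.7% of all genes, and the median was -0.19, against -0.013 over all genes.

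Several genes of the set share exon sequence with a gene on the opposite strand. The deposited counts carry the word strand in their name, but the sources used here do not state the strand setting of the counting. The overlap covers 49.5% of the exons of Gnptg (with Unkl), 21.9% of Sgsh (with Card14), 19.8% of Arsa (with C230037L18Rik), 13.5% of Ctsa (with Pltp), 13.3% of Acp2 (with Ddb2) and 13.2% of Cln3 (with Apobr) in GENCODE M21. Card14 had at most 4.20 CPM and C230037L18Rik at most 0.736 CPM, against 21.1 CPM or more for Sgsh and 13.6 CPM or more for Arsa. In the 9 libraries Pltp had 19.2 to 134 CPM, against 519 to 730 CPM for Ctsa, and Ddb2 had 0.386 to 11.6 CPM, against 150 to 256 CPM for Acp2. Apobr had at most 53.4 CPM, against 30.6 to 65.0 CPM for Cln3, and Unkl had 0 to 27.4 CPM, against 12.3 to 31.4 CPM for Gnptg. The values of Cln3 and Gnptg are therefore uncertain. The counts behind the set were large: the median half-width of the exact 95% interval of a value was 4.82%, and it was under 20% for 467 of 470 values above 0.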

How the data were processed

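Per the labels' protocols, RNA of sorted brain myeloid cells was purified with a kit for small samples and copied into cDNA. The authors deposited whole-number read counts per gene symbol, 1 table per library, without normalization. Alignment used STAR with the mouse genome GRCm39 (mm39), per the submitters' processing notes. For the aligner version, annotation, strand setting and counting filters: not given in the sources used here. All 11 columns were assigned, and 0 were left over.

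Levels are CPM by library total. The 9 libraries of 3 routes and 3 populations were fitted together as route plus population (4 residual degrees of freedom, common biological coefficient of variation 0.842) with edgeR 4.0.16 in R 4.3.3. The fit used TMM scaling, edgeR's expression filter (minimum count 10, minimum total 15), the quasi-likelihood F test and Benjamini-Hochberg adjustment over 13339 genes. The SE is the absolute log2 fold change divided by the square root of F. DESeq2 1.42.0 was an alternative, as were other scalings, no filter, no second factor and each library left out. By counting error alone, a count of 0 allows up to 3 counts. Intervals are exact at 95% and cover counting error only, since no molecular identifiers separate molecules from their PCR copies. Over 55 pairs, no 2 libraries agreed within sampling noise (the smallest ratio of chi-square to its degrees of freedom was 40.7).

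The genes, the lists and the tests were chosen with earlier results of these data known. Named were up to 4 genes each way by p per contrast, genes of CTR outside the range of the 9, up to 3 each way by ratio for PBS, the 5 largest and 5 smallest SDs, the X-linked genes and a few of clinical use. From the 4 other lists, up to 2 genes each way by p could be named.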

Additional observations from a re-analysis of the deposited data

How the results depend on the processing

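Of 816 values computed for the 48 named gene changes under other settings, 801 kept their direction and their side of the threshold, 7 crossed to an adjusted p under 0.05 and 8 turned in sign. None of the 48 was past the threshold in the main fit, so keeping its side meant only staying uncalled, whatever the size of the change. Of 334 values of counts, medians and differences, 272 stayed close to the reported value, which means within 1.5 times for a count, within 1 SD of the within-block values (for CTR, of the libraries) for a median, and within the counting interval for PBS. For most of the others the cause was not tested. The 272 include counts of lysosomal genes called that stayed at 0. In each contrast the SD of the within-block medians (0.13 to 0.29) exceeded the size of the main median. A median could therefore change sign and still be close, so these tallies do not measure how stable the results are.

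With DESeq2 in place of edgeR, 217 genes were called in CD45.1 TAµ against CD45.1 µ, 277 in CD45.2 µ against CD45.1 µ, 193 in CD45.1 TAµ against CD45.2 µ, 147 in ICV against IV, 150 in ITL against IV and 32 in ITL against ICV. Of the lysosomal genes DESeq2 called 2 (Galc and Sgsh) in CD45.1 TAµ against CD45.2 µ and 2 (Gla and Sgsh) in ICV against IV. With library totals alone, 18 genes were called in CD45.1 TAµ against CD45.1 µ and 3 in ICV against IV. With no filter the calls were 23 in CD45.1 TAµ against CD45.1 µ, 8 in ICV against IV and 2 in ITL against ICV. With the other factor left out of the model they were 2 in CD45.1 TAµ against CD45.1 µ, 0 in CD45.2 µ against CD45.1 µ and 16 in ITL against IV. The legacy quasi-likelihood fit, an alternative chosen after seeing the data, called 3 in CD45.1 TAµ against CD45.1 µ, 0 in CD45.2 µ against CD45.1 µ, 22 in CD45.1 TAµ against CD45.2 µ and 10 in ITL against IV.

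Leaving out 1 library at a time gave 0 to 24 genes called in CD45.1 TAµ against CD45.1 µ, 0 to 29 in CD45.2 µ against CD45.1 µ, 5 to 159 in CD45.1 TAµ against CD45.2 µ (0 to 2 lysosomal genes, the 2 without ICV CD45.2 µ), 0 to 28 in ICV against IV, 0 to 35 in ITL against IV and 0 to 3 in ITL against ICV. The change of Hgsnat in CD45.1 TAµ against CD45.1 µ ran from -0.90 to 0.10, and that of Acp5 in ICV against IV from -1.77 to 0.15. Without both ICV CD45.1 µ and IV CD45.2 µ, Hgsnat had 0.067 in the first of these contrasts. In CD45.2 µ against CD45.1 µ, Tpp1 had -0.027, Laptm5 -0.10 and the median of the 43 was -0.30. Arsa had 0.042 in CD45.1 TAµ against CD45.2 µ. In ICV against IV, Acp5 had 1.13, Tpp1 0.27 and the median was 0.52. The calls were then 49 in ITL against IV, with 1 lysosomal gene (Gla), and 2 in ITL against ICV. For CTR, 5 lysosomal genes lay outside the range with TMM-scaled CPM, 5 with Rn45s left out and 13 without both of those libraries.

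No paired analysis was possible because the labels give no replicate or animal numbers for groups to share. Route and population each served as the block of the other in the model. Depth limits only the lowest values: Acp5 in ITL CD45.2 µ rests on 20 counts, with an exact 95% half-width of 46.7%. Interactions of route and population could not be tested.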
